A study of Mus musculus with 42 samples.

Results

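HOXC9 binding was mapped by chromatin immunoprecipitation sequencing (ChIP-seq) in differentiating mouse cells at day 3 and again at day 4, and the strongest sites of the 2 days were compared. Each day has 1 deposited list of binding events, called over 2 pooled libraries. Events on chromosomes 1 to 19 and X were ranked by their estimated ChIP reads, and the top 10000 of each list, 20000 events in all, were taken from the 74067 events of day 3 and the 44020 of day 4. A top event with a top event of the other day within 100 bp was called kept. A top day 4 event without such a partner was called gained, and a top day 3 event without one was called lost. By this rule 6241 day 4 events were kept (62.4%) and 3759 gained (37.6%), and 6314 day 3 events were kept (63.1%) and 3686 lost (36.9%). The numbers of kept events differ between the days because neighbouring events can share a partner. Kept sites are described at their day 4 positions unless day 3 is named. The whole series has 42 samples and 21 deposited lists.

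All 4 libraries came from the embryonic stem cell line Ainv15(iFlag.Hoxc9), which carries Flag-tagged Hoxc9 as a doxycycline (Dox)-inducible transgene at the HPRT locus. The cells were grown as embryoid bodies (EBs) and given retinoic acid (RA) and a smoothened agonist (SAG) from day 0, which directs them to ventral spinal fates. Dox was added on day 2, so that the day 3 libraries had 24 h of transgene expression and the day 4 libraries 48 h. An antibody to the Flag tag was used on both days, so the signal is that of the transgene and not of the cells' own HOX proteins. The EBs hold motor neurons together with interneurons and progenitors, and a site bound in more cells cannot be told apart from a site bound more often in each cell. No library without Dox was compared.

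HOXC9 is a posterior HOX transcription factor. HOX factors are homeodomain proteins that give segments of the body axis their identity, and in the spinal cord HOXC9 is known for setting thoracic motor neuron fate. Posterior members favour a TTTAT core, and HOX factors often bind DNA beside PBX and MEIS, cofactors of the TALE homeodomain class. Motor neuron progenitors become postmitotic motor neurons over the days compared here. ONECUT, NEUROG2 and EBF factors take part in that step, while SOX and POU families have members in progenitors and in neurons.

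The libraries of the 2 days differed in more than time. Day 3 libraries held 26.8 M and 25.6 M reads and day 4 libraries 23.8 M and 21.8 M. The signal fraction, the caller's estimate of the share of reads that lie in events, was 0.174 and 0.398 at day 3 and 0.14 and 0.188 at day 4. The control library used by the caller held 20.6 M reads at day 3 and 4.72 M at day 4. The only library labelled as input came from iFlag.Hoxc8 cells at day 4. No day 3 library was labelled as input, and the labels do not name the day 3 control. By their labels both day 4 libraries came from the same flow cell. The label of day 3 replicate 1 named another flow cell, and that of replicate 2 was PPG, which may not name a flow cell. Day, control library and sequencing label therefore cannot be told apart for HOXC9. Each list pools its libraries and gives no reads of an event per library, so no test over replicates was made on the events. Shares below carry 95% Wilson intervals and differences between shares carry 95% Newcombe intervals. These cover counting error only, and neighbouring sites are not independent.

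The strongest sites of either day were nearly all kept, and the classes parted further down the ranking. Of the first 1000 day 3 events 96.7% were kept (95.4 to 97.6), against 37.5% (35.5 to 39.7) of those ranked 8001 to 10000. At day 4 the shares were 96.2% (94.8 to 97.2) and 39.2% (37.1 to 41.4). The first 1000 ranks held 33 lost and 38 gained events. At day 3 the estimated reads were 316.4 at rank 10000 and also 316.4 at rank 10001, and at day 4 they were 173.9 and 173.8, so events just inside and outside the limit had practically the same level. Over the kept sites the reads of the 2 days had a Spearman correlation of 0.468 across 6241 sites, which share libraries and are not replicates. The rule cut their range of reads on both days, so this value describes the class and tests nothing. Over all top day 4 events with any day 3 event within 100 bp it was 0.509 across 9788 events, with the range cut at day 4 only. The position of a kept event moved little, since 79.9% of them lay within 20 bp of their day 3 partner.

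**Figure D1:**
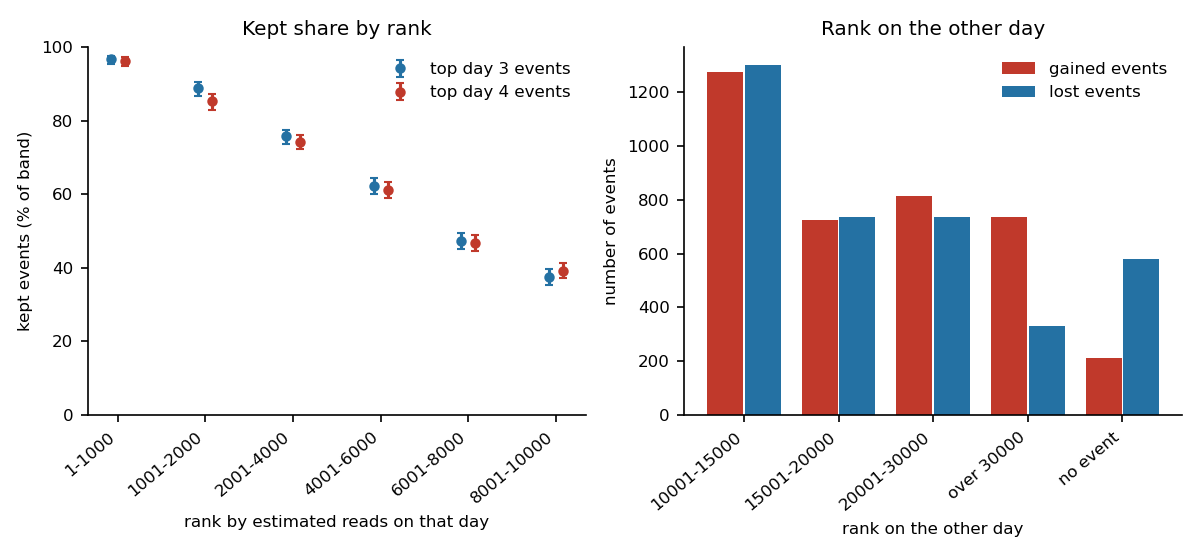
Left, share of top HOXC9 events kept (%, with 95% Wilson intervals) in 6 bands of rank by estimated reads, for day 3 in blue and day 4 in red; the share fell from 96.7% to 37.5% at day 3 and from 96.2% to 39.2% at day 4. Right, number of gained (red) and lost (blue) events by their rank on the other day. Of these, 212 gained and 580 lost events had no event of the other day within 100 bp.

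Most gained and lost sites were changes of rank, not of presence. Of the 3759 gained events, 3547 (94.4%, 93.6 to 95.1) had a weaker day 3 event within 100 bp, at a median rank of 18302. Of the 3686 lost events, 3106 (84.3%, 83.1 to 85.4) had a weaker day 4 event, at a median rank of 16414.5. That left 212 gained events with no day 3 event of any rank within 100 bp and 580 lost events with no such day 4 event. Some lay just past this limit. The strongest of these gained sites had a day 3 event 105 bp away, and the strongest of these lost sites a day 4 event 105 bp away. With a limit of 200 bp, 96.6% of gained and 88.3% of lost events had a weaker event on the other day. The day 4 list is the shorter of the pair, so a weak event had fewer places in it. If an event of any rank counted as a partner, 97.9% of top day 4 events and 94.2% of top day 3 events would be kept.

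The sequences of the strongest sites are shown because they carry the motifs counted further below. Each is 101 bases centred on the event, read from the GRCm38.p6 assembly (mm10), with TTTAT or its reverse complement in capitals. All 3 gained sites held 2 matches.
gained site at chr4:127419441-127419541, plus strand: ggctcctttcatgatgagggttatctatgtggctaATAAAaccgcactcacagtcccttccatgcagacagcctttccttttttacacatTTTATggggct
gained site at chr13:41712814-41712914, plus strand: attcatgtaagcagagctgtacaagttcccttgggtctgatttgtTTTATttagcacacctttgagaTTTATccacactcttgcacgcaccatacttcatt
gained site at chr17:73367444-73367544, plus strand: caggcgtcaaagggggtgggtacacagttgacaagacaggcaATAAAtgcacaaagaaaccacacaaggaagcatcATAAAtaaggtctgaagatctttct

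The strongest and the next strongest lost site held 0 and 1 matches.
lost site at chr9:96235615-96235715, plus strand: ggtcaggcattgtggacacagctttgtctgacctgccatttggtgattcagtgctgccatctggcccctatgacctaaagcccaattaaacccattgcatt
lost site at chr15:39925926-39926026, plus strand: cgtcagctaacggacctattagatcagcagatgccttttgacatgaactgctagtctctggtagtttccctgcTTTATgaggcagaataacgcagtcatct

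The 3 strongest kept sites held 1, 1 and 0 matches. They are shown at their day 4 positions.
kept site at chr15:103305331-103305431, plus strand: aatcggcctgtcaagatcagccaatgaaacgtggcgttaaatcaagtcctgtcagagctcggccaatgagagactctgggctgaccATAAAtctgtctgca
kept site at chr15:103014616-103014716, plus strand: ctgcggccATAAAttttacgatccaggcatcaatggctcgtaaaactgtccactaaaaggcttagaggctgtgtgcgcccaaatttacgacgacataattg
kept site at chr10:50733660-50733760, plus strand: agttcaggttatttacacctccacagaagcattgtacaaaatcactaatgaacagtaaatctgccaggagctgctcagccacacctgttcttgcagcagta

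The strongest gained site, at chr4:127419491, had 248.5 estimated reads at day 3 and 1410.8 at day 4, where it ranked 207. It lay between genes, 61.3 kb from the nearest protein-coding start site, that of Gjb5. The next was at chr13:41712864 near Tmem170b, with 312.2 reads at day 3 and 1309.5 at day 4. All 5 strongest gained sites rose at least from rank 10162, and all 5 had a HOXC10 event on both days and a HOXC6 event at day 4. Over all gained sites 36.5% had a HOXC10 event on both days, and the HOXC6 share is given further below. Another of the 5 lay in an intron of Capn13 (308.8 and 1208) and another in an intron of Zdhhc2 (140.8 and 1192.1).

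The strongest lost site, at chr9:96235665 in an intron of Tfdp2, had 2197.9 estimated reads at day 3 and 132.2 at day 4. Its window held no TTTAT but did hold CAGATG and AGGTCA. The next, in an intron of Lrp12 at chr15:39925976, had 1912.8 and 167.6 reads. Another of the 5 strongest lay 1146 kb from the type II cadherin gene Cdh20 (1552.5 and 155.8). These day pairs were set apart by the ranking itself, so they describe the classes and test nothing.

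The strongest kept site lay at chr15:103305381, 5.23 kb from the Gpr84 start site, with 3965.3 reads at day 3 and 6661.3 at day 4. The next lay in an intron of Hoxc5 inside the HoxC cluster, at chr15:103014666, with 2907.9 and 4569.8 reads. The sites in introns of Ascc3 (4115.6 and 3920.2), the neurodevelopmental gene Auts2 (5395.7 and 3852.5) and the adhesion receptor gene Adgrl3 (2235.1 and 3665.2) followed. All 5 had HOXC10 events on both days and a MEIS event in iHoxc9 cells. Over all kept sites 57.5% had HOXC10 events on both days, and the MEIS share is given further below.

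Kept, gained and lost sites differed little in where they lay. The median distance to the nearest protein-coding start site was 92.8 kb for kept, 92.4 kb for gained and 88.1 kb for lost sites. Within 1 kb of a start site lay 1.52% of kept, 1.70% of gained and 1.22% of lost sites, and beyond 100 kb lay 48.0%, 48.3% and 47.1%. In introns lay 45.2%, 42.9% and 43.6%. For all 9 measures of position compared between gained and lost sites the interval of the difference held 0. The widest gap was for distances of 10 to 100 kb, with 40.4% of gained and 41.7% of lost sites (difference -1.32 points, -3.55 to 0.92). With the top 5000 events the share beyond 100 kb was lower in gained than in lost sites (difference -3.60 points, -6.69 to -0.50). This comparison thus depended on the length of the lists. Among sites with no event of the other day within 100 bp, introns held 33.0% of gained and 42.1% of lost sites. That difference was -9.05 points (-16.3 to -1.37). The sites of all 3 classes lay farther out than weaker events, whose medians were 77.2 kb at day 3 and 76.3 kb at day 4.

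The sequence around the sites did separate gained from lost. Sites lost by day 4 held ATTGAT, a form of the ONECUT motif, CAGATG, the E-box of NEUROG2 type, and AGGTCA, the half-site of nuclear receptors, about 2 times as often as sites gained by day 4. Gained sites held more matches to the SOX form ACAATG and to the POU octamer ATGCAAAT. At least 1 of the ONECUT form, the NEUROG2-type E-box and the half-site stood in 46.2% of lost, 30.6% of kept and 23.3% of gained sites, and the gained minus lost difference was -22.95 points (-25.0 to -20.8).

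Matches were sought on both strands in 101 bases, 50 to each side of the event. The 20 motifs were the posterior HOX core TTTAT with its longer form TTTATTG and the other longer form TTTATGG, the homeodomain core TAAT with its palindrome TAATTA, the PBX with HOX form TGATTTAT and its relative TGATTAAT, the MEIS or PREP form TGACAG, the general E-box CAGCTG and the NEUROG2-type E-box CAGATG for bHLH factors, the EBF form CCCNNGGG, the ONECUT form ATCGAT and its second form ATTGAT, the SOX form ACAATG, the POU octamer ATGCAAAT, the nuclear receptor half-site AGGTCA, the GATA form AGATAA, the NFI half-site TTGGCA, the SP/KLF box GGGCGG, and the core of CTCF. The forms overlap in part, as TTTATTG and TGATTTAT both hold TTTAT, and TAATTA and TGATTAAT hold TAAT. The same length of sequence 1 kb to each side of all top events gave the local background. A match is a string of letters and does not show that a factor was bound.

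ATTGAT stood in 20.3% of lost sites (18.999 to 21.6), 12.4% of kept sites and 9.87% of gained sites, with 5.43% in the flanking windows. The gained minus lost difference was -10.4 points (-12.0 to -8.79). The rarer ONECUT form ATCGAT moved the same way, at 1.14% of lost and 0.239% of gained sites. Counting only ATTGAT that did not overlap TTTAT left 18.3% and 8.70%, and the longer AATCAAT, added after the values were seen, stood in 11.6% of lost and 3.46% of gained sites.

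CAGATG stood in 16.8% of lost, 11.3% of kept and 8.11% of gained sites, and in 7.21% of flanking windows. The difference between gained and lost was -8.71 points (-10.201 to -7.22), which left gained sites close to their flanks. The general E-box CAGCTG differed less, with 9.12% of lost and 6.84% of gained sites (-2.28 points, -3.51 to -1.05). AGGTCA stood in 16.3% of lost, 9.74% of kept and 7.08% of gained sites, against 5.51% in flanking windows, a difference of -9.26 points (-10.7 to -7.81).

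Lost sites also stood apart from kept sites at ranks 5001 to 10000, which held 2718 lost and 2282 kept day 3 events. There, lost sites held more ATTGAT (difference 7.76 points, 5.75 to 9.74), more AGGTCA (6.09, 4.26 to 7.90) and more CAGATG (4.55, 2.60 to 6.49), and less TTTAT (-5.55, -8.19 to -2.90). Gained sites differed from kept day 4 events of those ranks in the opposite direction, with -3.84 points for ATTGAT (-5.70 to -2.01), -3.34 for AGGTCA (-4.98 to -1.72) and -5.67 for CAGATG (-7.42 to -3.95). This choice of ranks was made after the values were seen.

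**Figure D2:**
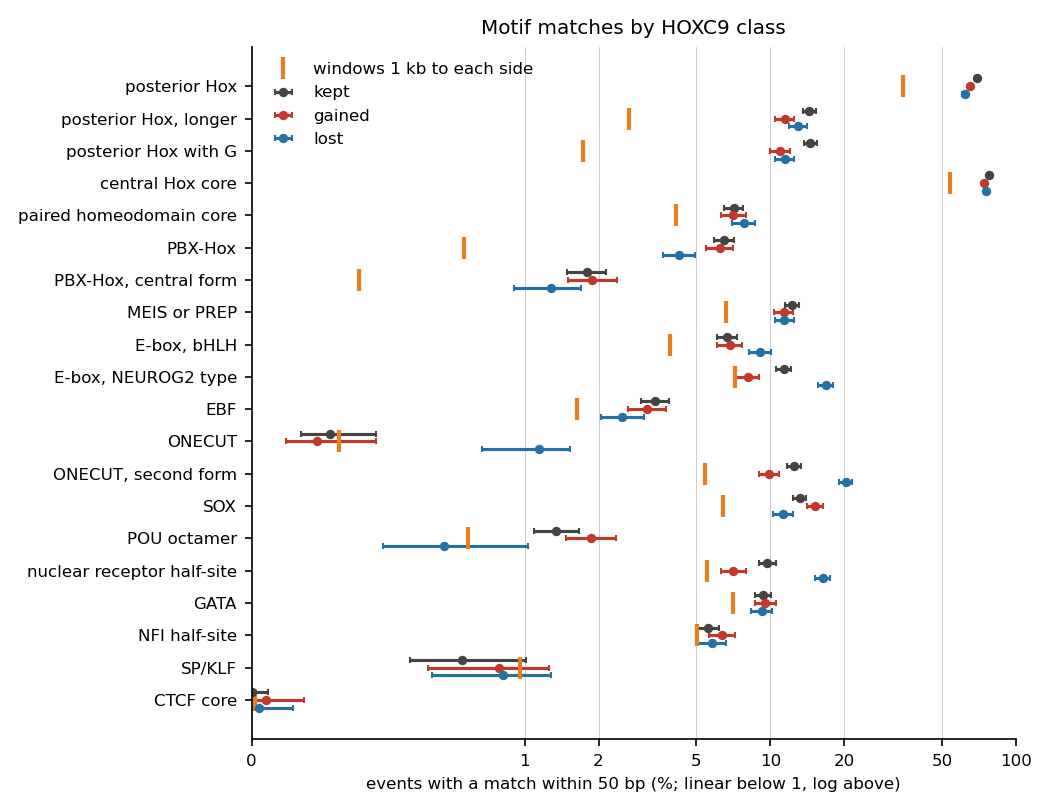
Share of kept (grey), gained (red) and lost (blue) HOXC9 events with a match to each of 20 motifs in 101 bases (%, with 95% Wilson intervals, on an axis that is linear below 1 and logarithmic above), with the share in windows 1 kb to each side as orange bars. Lost sites were to the right of gained sites for the ATTGAT form of ONECUT (20.3% and 9.87%), the NEUROG2-type E-box (16.8% and 8.11%) and the nuclear receptor half-site (16.3% and 7.08%).

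The posterior HOX core was common in all 3 classes. TTTAT stood in 69.3% of kept, 65.3% of gained and 62.1% of lost sites, against 34.7% in flanking windows. Gained exceeded lost by 3.16 points (0.972 to 5.34). The longer forms did not follow, with TTTATTG in 11.5% of gained and 12.9% of lost sites (-1.48 points, -2.96 to 0.0122) and TTTATGG in 10.96% and 11.4% (-0.488 points, -1.92 to 0.945). The PBX with HOX form TGATTTAT stood in 6.47%, 6.23% and 4.26%, and gained exceeded lost by 1.97 points (0.955 to 2.98). The MEIS form TGACAG was alike in gained and lost sites within counting error, at 11.3% and 11.4% (difference -0.0888 points, -1.53 to 1.35). ACAATG stood in 15.2% of gained and 11.3% of lost sites (3.90 points, 2.37 to 5.44), and ATGCAAAT in 1.86% and 0.705% (1.16 points, 0.652 to 1.69). EBF, GATA, NFI, SP/KLF and CTCF matches gave intervals that held 0. Mean GC content was 40.3% in gained and 40.2% in lost windows, and a CG dinucleotide stood in 59.8% and 55.5% of them.

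In lost sites the 3 motifs were more frequent near the event than at 200 bp, but only ATTGAT was highest right beside it. In bins of 10 bp, ATTGAT reached 3.55% of lost sites 5 bp from the event and AGGTCA 2.25% 15 bp from it. In gained sites no bin within 200 bp exceeded 1.73% for ATTGAT and 0.984% for AGGTCA. The E-box CAGATG was highest in lost sites 25 bp to the left of the event, at 2.55%. It was lower 5 bp to either side, at 1.60%, than 65 bp to the right, at 2.28%. TTTAT peaked at the event itself in each class. Within both lists TTTAT matches piled up at single offsets, such as 1 bp to the left of the event in 402 kept day 4 sites and 2 bp to the left in 682 kept day 3 sites. Event positions were therefore not independent of TTTAT, and the fine offset differed between the lists.

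**Figure D3:**
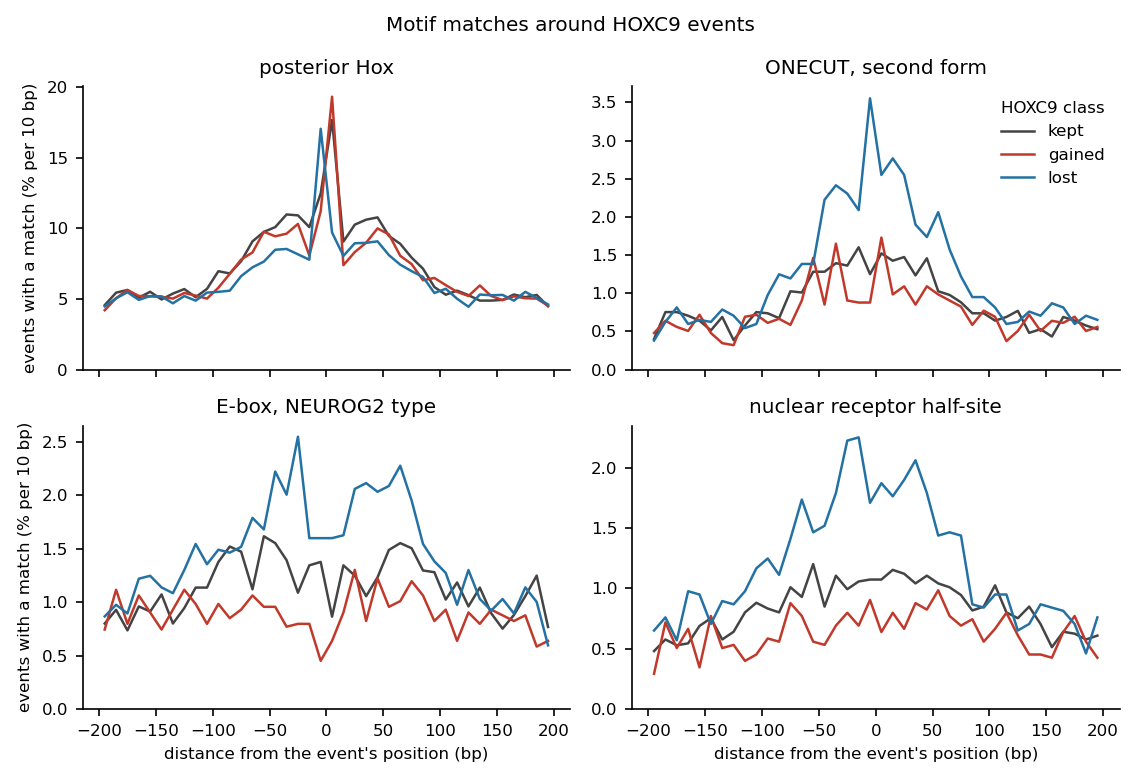
Share of kept, gained and lost HOXC9 events with a motif match in each 10 bp bin (%) against the distance from the event's position (bp), for 4 motifs. The ATTGAT form of ONECUT rose to 3.55% of lost sites near the event, the nuclear receptor half-site to 2.25% and the E-box to 2.55%, while gained sites stayed at or under 1.73%, 0.984% and 1.30%.

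The same classes were built for HOXC6 and HOXC10, which were assayed at both days with the same times of Dox. One of the 3 HOXC10 libraries of day 3 came from the line iHoxc10.V5, and the other two, like all 4 of day 4, from iFlag.Hoxc10, so line and tag changed in part with day. By its read count all 3 factors share the control library of each day, so these comparisons are not independent and only their own values are given. The 2 HOXC6 libraries of day 3 and the 2 of day 4 came from the same 2 flow cells, so for HOXC6 the flow cell did not change with day. ATTGAT stood in 24.0% of lost and 12.9% of gained HOXC6 sites (difference -11.1 points, -13.0 to -9.12) and in 28.0% and 6.53% of HOXC10 sites (-21.5 points, -23.0 to -20.0). CAGATG stood in 21.3% of lost and 14.2% of gained HOXC6 sites (-7.10 points, -9.004 to -5.17) and in 18.0% and 8.13% of HOXC10 sites (-9.91 points, -11.3 to -8.55). AGGTCA stood in 15.8% of lost and 9.97% of gained HOXC6 sites (-5.88 points, -7.55 to -4.19) and in 15.5% and 9.18% of HOXC10 sites (-6.36 points, -7.69 to -5.02). The 3 motifs were thus more frequent in lost than in gained sites for each factor.

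TTTAT and ACAATG did not follow one direction. TTTAT was higher in gained than in lost sites of HOXC6 (52.0% and 33.8%) and lower in those of HOXC10 (32.7% and 53.6%). ACAATG stood in 12.9% of gained and 14.5% of lost HOXC6 sites (-1.62 points, -3.35 to 0.136, an interval that holds 0). In HOXC10 sites it stood in 7.63% and 9.18% (-1.55 points, -2.68 to -0.418), the opposite order to HOXC9. Gained HOXC10 sites also held GGGCGG in 9.42%, against 1.54% of lost ones. The HOXC10 day 4 libraries had low signal fractions, 0.0513 ± 0.00403 (SD, n = 4). Those of the HOXC10 day 3 libraries were 0.017, 0.041 and 0.161, the first with 5.04 M reads. For HOXC6 the signal fractions were 0.08 and 0.07 at day 3 and 0.311 and 0.304 at day 4. The part of these signal fractions in the HOXC10 and HOXC6 values was not tested.

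HOXC9 kept more of its top sites than HOXC10 and fewer than HOXC6. For day 3 events the kept share was 63.1% for HOXC9 and 53.9% for HOXC10 (difference 9.22 points, 7.86 to 10.6), and 66.4% for HOXC6 (-3.29 points, -4.61 to -1.97). For day 4 events it was 62.4%, 53.6% (8.80 points, 7.44 to 10.16) and 73.3% (-10.9 points, -12.2 to -9.61). The lists of the 3 factors differ in depth, and the day 3 HOXC6 list held only 17898 events.

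Other HOX factors' events at the HOXC9 sites split by day. HOXC10 day 3 events lay within 100 bp of 57.0% of lost and 46.0% of gained HOXC9 sites (difference -11.0 points, -13.2 to -8.71). HOXC10 day 4 events lay at 32.3% of lost and 52.1% of gained sites, the reverse order (19.7 points, 17.5 to 21.9). HOXC6 gave the same turn, with day 3 events at 39.9% of lost and 24.6% of gained sites (-15.3 points, -17.4 to -13.2) and day 4 events at 62.9% and 70.6% (7.64 points, 5.50 to 9.77). Kept sites exceeded both classes in all 4 lists, at 71.3% and 63.3% for HOXC10 and 46.9% and 79.0% for HOXC6. The HOXC10 day 3 libraries carried the labels of the HOXC9 day 3 libraries. Replicates 1 and 2 of HOXC10 day 4 carried the label of the HOXC9 day 4 libraries. The HOXC10 lists are thus not independent of those that define the classes, and the part of the shared labels was not tested. The HOXC6 libraries came from the same flow cells at both days. The control library, and the labels of the HOXC9 libraries that define the classes, differed between the days.

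Split by both days, HOXC10 had a day 3 event and no day 4 event at 26.8% of lost and 9.52% of gained HOXC9 sites, and a day 4 event and no day 3 event at 2.14% and 15.6%. For HOXC6, day 4 without day 3 was found at 46.0% of gained and 23.7% of lost sites, and day 3 without day 4 at 0.0798% and 0.733%. The HOXC6 day 4 list is the longer one, with 69285 events, and its part in this split was not tested.

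At day 3 the other posterior and central factors had more events at lost than at gained HOXC9 sites. HOXC8 events lay at 64.6% and 53.8%, HOXA9 events at 86.5% and 79.8%, and HOXD9 events at 62.8% and 59.7%. For HOXC13 the interval held 0, with 48.3% and 46.7% (difference -1.58 points, -3.84 to 0.693). The HOXA9, HOXD9 and HOXC13 lists each pooled a library from a Flag-tagged line with a library from an HA-tagged line. With each other list limited to its top 10000 events, HOXA9 events lay at 41.8% of lost and 24.7% of gained sites (-17.1 points, -19.2 to -15.0). HOXC9 events from EBs that had received no RA or SAG lay at 57.1% of lost and 54.0% of gained sites (-3.10 points, -5.36 to -0.847), and at 74.8% of kept sites. Those EBs had 12 h of Dox, against 24 h and 48 h for the HOXC9 libraries of day 3 and day 4.

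MEIS went the other way. The MEIS libraries came from V5-tagged lines (iHoxc9.V5, iHoxc6.V5 and iHoxc10.V5), not from the Flag-tagged line of the HOXC9 libraries. In iHoxc9 cells at day 3, MEIS events lay at 59.0% of kept, 42.4% of gained and 30.5% of lost HOXC9 sites. Gained exceeded lost by 11.9 points (9.68 to 14.0). Among day 3 events ranked 5001 to 10000 the share was 29.4% of lost and 54.0% of kept sites (difference -24.6 points, -27.3 to -21.9). In iHoxc6 cells the MEIS shares were 16.4% of gained and 13.3% of lost sites (3.07 points, 1.45 to 4.68), and in iHoxc10 cells 19.2% and 17.4% (1.76 points, 0.00759 to 3.52). Each MEIS list comes from 1 library. Among sites with no event of the other day within 100 bp the order in iHoxc9 cells turned, with 17.9% of gained and 20.7% of lost sites (-2.77 points, -8.52 to 3.74). PBX events of day 4 lay at 0.0798% of gained and 0.0543% of lost sites, in a list of only 1164 events, so the PBX data could not separate the classes.

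**Figure D4:**
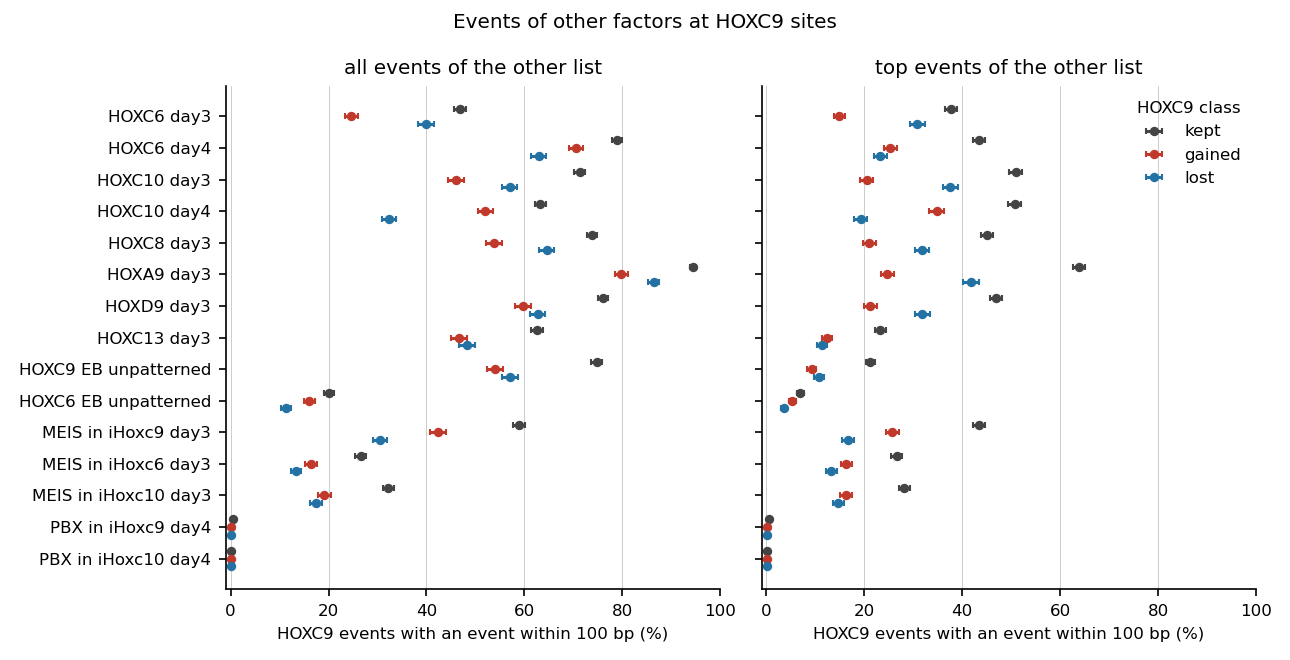
Share of kept (grey), gained (red) and lost (blue) HOXC9 events with an event of another factor within 100 bp (%, with 95% Wilson intervals), for 15 lists at full length (left) and limited to the top 10000 (right). Lost sites were above gained sites in the day 3 HOXC6 and HOXC10 lists and below them in the day 4 lists, and MEIS in iHoxc9 cells was at 42.4% of gained and 30.5% of lost sites.

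Each event was assigned to the protein-coding gene with the nearest start site, which gives a neighbourhood and not a target. Of 21670 genes, 9.8% were nearest to at least 1 gained event (2123 genes), 9.41% to at least 1 lost event (2040) and 12.3% to at least 1 kept event (2656). Gained and lost events often shared a gene, since 921 genes (4.25%) had both, 1202 (5.55%) had gained without lost events and 1119 (5.16%) lost without gained events. At least 3 kept, gained and lost events were nearest to 3.39% (734), 1.7% (368) and 1.68% (363) of genes. Counts grow with the stretch of genome nearest to a gene, so events per Mb of that stretch are given too. Over all genes there were 2.37 kept, 1.43 gained and 1.40 lost events per Mb.

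Genes with many events of 1 class tended to be large neighbourhoods that held all 3 classes. Zfp608, which encodes a zinc finger protein, had 27 kept, 26 gained and 12 lost events, the highest gained count of any gene, at 21.1 gained events per Mb. Lrmda had 16 kept, 15 gained and 2 lost events, and Hdgfl1 had 2, 11 and 1. Pom121l12 had 2 kept and 10 gained events and no lost one. Galntl6 had 10 gained and 2 lost events, and Sall1, a zinc finger regulator of development, had 9 gained and 1 lost. Celf2, an RNA-binding protein gene, had 9 gained and 8 lost events.

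Lost events were most numerous near Robo2, the receptor gene for SLIT guidance cues, with 17 lost, 8 gained and 19 kept events. Auts2 had 14 lost and 5 gained, and the teneurin gene Tenm3, whose product joins neurons in circuits, had 14 and 5. Npas3, a neural bHLH-PAS factor gene, had 14 lost but also 9 gained events. Cntnap2, a neurexin family gene, had 13 lost and 3 gained events. Cdh20 had 10 lost and 1 gained, and Olfm4 had 11 and 1. Kept events were most numerous near Auts2, with 31, followed by Zfp608 with 27, Robo1 with 21 and Epha7, Robo2, Adgrl3 and the adhesion gene Flrt2 with 19 each, and Nr2f1 with 18.

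**Figure D5:**
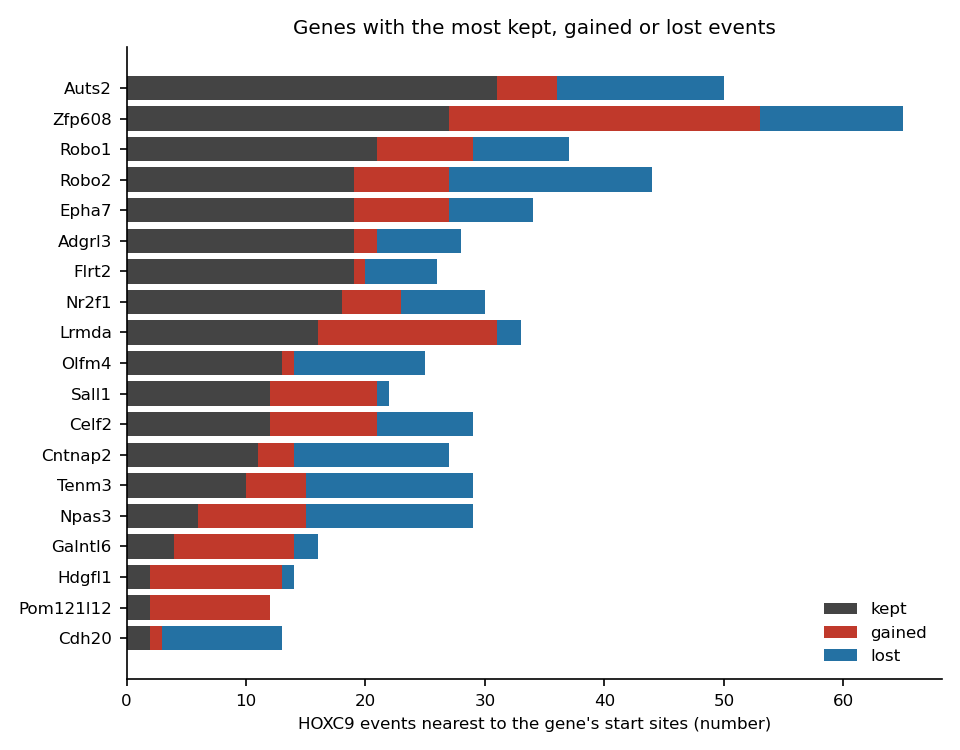
Number of kept (grey), gained (red) and lost (blue) HOXC9 events nearest to the start sites of each of the genes with the most events of a class. Zfp608 had 26 gained and 12 lost events, Robo2 8 and 17, Pom121l12 10 and 0, and Cdh20 1 and 10.

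The Hox genes themselves were dense in kept sites, with 43 kept, 15 gained and 4 lost events near 39 genes, 50.8, 17.7 and 4.73 per Mb. Gained events made up 78.9% (56.7 to 91.5) of the changed events, against 50.5% over all genes. The strongest of them lay in the untranslated part of Hoxb7 at chr11:96286696, 0.073 kb from its start site, with 244.1 reads at day 3 and 1132.2 at day 4. Hoxb3 had 4 kept, 3 gained and 1 lost events, and Hoxa2 and Hoxd3 had 2 gained events each. The genes with fewer than 3 gained and fewer than 3 lost events named here and for the motor neuron and ONECUT lists were picked after their values were seen. The 4 lost events, among them those near Hoxb3, Hoxc8 and Hoxd3, had 322.4 to 519.5 reads at day 3. Genes of the clusters lie close together, so the nearest start site is a weak guide there.

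The cofactor genes also held many sites, with 48 kept, 19 gained and 13 lost events near 9 MEIS, PBX and PREP genes (15.2, 6.01 and 4.11 per Mb). Meis1 had 13 kept, 7 gained and 3 lost events. Its strongest gained site, at chr11:19353805, had 125 reads at day 3 and 399.3 at day 4. Pbx3 was on the other side, with 10 kept, 1 gained and 4 lost events, and Meis2 was even with 4 gained and 4 lost.

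Motor neuron identity genes had 7 gained and 15 lost events, so that gained events were 31.8% of the changed ones (16.4 to 52.7, an interval that holds the 50.5% of all genes). Isl1, the LIM homeodomain gene of postmitotic motor neurons, had 6 kept, 1 gained and 7 lost events. Of the lost ones the strongest, at chr13:115788059 and 521 kb from the start site, had 1348.7 reads at day 3 and 101.6 at day 4. A site on the other side of the gene, at chr13:116405777, had 876.7 and 166.1. Isl2 had a lost site with 735.5 and 152.1 reads, and Lhx3, the partner of ISL1 in motor neuron specification, had a lost site with 430.5 and 141.8 reads. Mnx1, the gene of the motor neuron factor HB9, had 2 gained sites. The one in its intron, at chr5:29475740, had 244.5 reads at day 3 and 444.9 at day 4, and the one at chr5:29487059 had 213.1 and 395.

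Neuronal differentiation factors were balanced as a list, with 35 gained and 33 lost events near 24 genes, while single genes leaned one way. Onecut1 had 3 lost, 1 kept and no gained events, and Onecut2 had 1 lost event. Of these 4 lost sites 3 had no day 4 event of any rank within 100 bp, and their day 3 reads were 322.6 to 521.3. Ebf1 had 9 lost, 5 gained and 10 kept events, and all 9 lost ones lay in its introns. Myt1l had 6 gained and 2 lost.

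Among genes of motor columns and pools, gained and lost events were 33 and 38. Foxp1, which marks limb-innervating motor neurons, had 12 kept, 5 gained and 6 lost events. Nr2f1 and Nr2f2, orphan nuclear receptor genes, had 5 and 3 gained and 7 and 6 lost events. Zeb2 had 5 gained and 9 lost. In the RA pathway there were 12 gained and 8 lost events. Rarb, an RA receptor gene, had 6 gained and 1 lost, and Cyp26b1, whose enzyme breaks RA down, had 1 gained and 3 lost.

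Progenitor patterning genes had 26 gained and 24 lost events. Sox2, a progenitor factor gene, had 9 kept and 5 gained events and no lost one. Nkx6-1 had 11 kept, 7 gained and 3 lost events, and Gli2, which transmits the hedgehog signal, had 2 gained and 4 lost. In the Notch pathway Jag1 had 4 gained and no lost events, of 5 gained and 4 lost over the list. Interneuron genes had 11 gained and 8 lost events, of which Pou4f1 had 4 and 1.

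Guidance genes held more events of each class per Mb than all genes, while type II cadherins held fewer. Kept, gained and lost events per Mb were 6.48, 2.68 and 4.54 for SLIT, ROBO and netrin genes. For Eph receptors and ephrins they were 4.68, 3.40 and 2.64, and for semaphorins, neuropilins and plexins 4.26, 2.84 and 2.72. Type II cadherins had 2.09, 1.27 and 1.36, against 2.37, 1.43 and 1.40 over all genes. SLIT, ROBO and netrin genes had 29 gained and 49 lost events, so that gained events were 37.2% of the changed ones (27.3 to 48.3), below the 50.5% of all genes. Robo2 alone gave 17 of the 49 lost events, and without it the share was 39.6% (27.6 to 53.1), an interval that holds 50.5%. Of the others, Slit2 had 4 gained and 6 lost, Dcc 4 and 7, and Unc5d 1 and 6. Eph receptors and ephrins had 45 gained and 35 lost events, with Epha5 at 5 and 2, Epha4 at 7 and 8 and Efnb2 at 7 and 8. Semaphorins, neuropilins and plexins had 24 and 23, within which Nrp2 had 7 lost and no gained events and Sema6d 5 gained and no lost. Type II cadherins had 28 and 30, with Cdh11 at 4 and 1, Cdh9 at 3 and 1 and Cdh20 at 1 and 10.

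Synaptic and channel genes had 29 gained and 15 lost events, so that gained events were 65.9% of the changed ones (51.1 to 78.1), and without Nrxn3 66.7% (49.6 to 80.2), an interval that holds 50.5%. Nrxn3 and Nlgn1, which encode partners across the synapse, had 7 and 6 gained and 4 and 3 lost events. Pluripotency genes had 3 gained and 6 lost events near 15 genes, and caudal axis genes none gained and 1 lost near 13. Median counts of gained and lost events per gene were 0 over all genes and in 10 of the 16 lists. The lists were chosen with results of these data known, and in 14 of the 16 the median gene had a wider stretch than the median over all genes, so a higher count alone sets no list apart.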

How the data were processed

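The authors aligned reads to mm10 with Bowtie 1.0.1, keeping single best hits. They called events with MultiGPS over the pooled replicates of each condition, with a control library and a q-value limit of 0.001. The authors' caller wrote for each event an estimated count of ChIP reads (expected counts, as deposited), which ranked the events, the log2 fold over the input and the log2 of the q-value, both used only for alternative rankings. The submitters' notes also name Picard 2.8.2 and edgeR 3.22.5. The 18 columns of the 2 HOXC9 lists that hold the authors' edgeR comparisons between conditions were not used, nor were the BED files and the chimeric factors.

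Groups came from the labels. Classes, motif counts and overlaps were computed in Python 3.11.15 with numpy 2.4.6 and pandas 2.3.3, and genes came from GENCODE release M21. The motif sequence deposited beside each of the first 1000 events of either list was found within 100 bp of its position in GRCm38.p6. All planted partners and motifs were recovered on simulated data. The classes, motifs and 16 gene lists were chosen with earlier results of these data known. Genes were named if among the 8 with the most kept, gained or lost events, nearest to the 5 strongest of a class, or members of a list with at least 3 gained or lost events. Exceptions are stated, and some genes this rule names are not reported here. Alternative rankings, list lengths, distances, windows and gene assignments were tried.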

Additional observations from a re-analysis of the deposited data

How the results depend on the processing

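The kept share depended most on the measure of strength and on whether weak events counted. For top day 4 and top day 3 events in that order it was 48.8% and 50.7% when ranked by fold over control, 60.0% and 60.3% for the top 5000 events, 65.1% and 66.6% for the top 20000, 59.4% and 60.2% within 50 bp, 64.1% and 65.0% within 200 bp, 65.6% and 66.6% within 500 bp, 97.9% and 94.2% with any event of the other day, and 95.1% and 94.2% with any event and both lists at the length of the shorter. The shares of gained and of lost events with a weaker event on the other day were 97.7% and 95.01% for the top 5000, 84.9% and 58.1% for the top 20000, 83.8% and 73.9% within 50 bp, 96.6% and 88.3% within 200 bp, 96.9% and 89.2% within 500 bp, and 87.6% and 65.1% with only events of a q-value under 1e-10. The gained share was 93.4% when ranked by q-value, and the lost share was 74.9% when ranked by fold.

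For the gained minus lost differences, the top 5000 events gave -3.60 points beyond 100 kb, 5.39 for TTTAT, -6.88 for CAGATG and -19.01 for HOXC6 day 3, with 1342 genes near a gained and 1331 near a lost event. Any event of the other day as a partner left 212 gained and 580 lost events, near 195 and 477 genes. It gave 6.61 points beyond 100 kb (-1.24 to 14.3), and -9.05 in introns (-16.3 to -1.37), an interval that excluded 0. For motifs it gave 6.08 for TTTAT (-1.77 to 13.7), -5.39 for CAGATG and -16.3 for AGGTCA. For other lists it gave -31.9 for HOXC10 day 3, -33.9 for HOXC6 day 3 and 3.57 for HOXC6 day 4 (-4.24 to 11.1). The intervals for TTTAT and HOXC6 day 4 thus came to hold 0. The sign turned for TGATTTAT (-0.573) and for MEIS in iHoxc9 cells (-2.77), also with intervals that held 0. The cause was not tested. Motifs within 100 bp gave -14.0 points for CAGATG and -13.4 for AGGTCA. The top events of the other lists gave -17.1 for HOXC10 day 3, 15.5 for HOXC10 day 4, 2.05 for HOXC6 day 4 and 9.18 for MEIS. For the ONECUT form ATTGAT, the NEUROG2-type E-box and the nuclear receptor half-site, spellings 1 base longer, chosen after seeing the data, gave -8.15, -4.89 and -4.22. These 3 motifs were lower in gained than in lost sites under each alternative for which they were counted. Their differences ran from -11.9 to -8.15, from -14.0 to -4.89 and from -16.3 to -4.22 points. They were not counted for ranking by fold over control, the longest lists, the shortest or longest partner distance, or the stricter q-value limit. Nor were they counted for any event as a partner with both lists at the length of the shorter.

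No paired analysis was possible because each list pools its 2 libraries. Leaving out a replicate could not be done for the same reason. The shallow day 4 control and the shorter day 4 list limit what can be said of sites with no day 4 event.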

Other observations

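A gained and a lost event cannot lie within 100 bp of each other by the rule that made the classes, so neighbours were also counted from beyond 100 bp up to 1000 bp, chosen after seeing the data. In that range 10.19% of gained events had another gained event and 2.05% a lost one, and 11.7% of lost events had another lost event and 2.14% a gained one. Counted from 0 bp, a second gained event lay within 1000 bp of 12.5% of gained events (11.5 to 13.6), and a kept event within 1000 bp of 9.31%. Of the lost events, 14.4% (13.3 to 15.5) had another lost event and 10.3% a kept event within 1000 bp. Another kept event lay within 1000 bp of 26.0% of kept events, and of 19.6% counted from beyond 100 bp. The kept class is the largest, and neighbouring events that share a partner are all kept. This share therefore cannot be set directly against those of the other classes. Near Ebf1 a lost site at chr11:44697040, with 458.6 reads at day 3 and no day 4 event within 100 bp, lay beside a gained site at chr11:44696914, with 167.9 reads at day 3 and 292.8 at day 4.

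A CG dinucleotide stood in 61.9% of kept windows. Neither TTTAT nor TAAT stood in 9.55% of gained, 8.82% of lost and 6.23% of kept windows. Among sites with no HOXC9 event of the other day within 100 bp, AGGTCA stood in 20.5% of the 580 lost and 4.25% of the 212 gained sites. The difference was -16.3 points (-20.3 to -11.5). By chromosome, the gained share of top day 4 events ranged from 34.2% on chromosome 16 to 41.9% on chromosome X, and the lost share of top day 3 events from 29.8% on chromosome 19 to 46.2% on chromosome X.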
